A study of Homo sapiens with 3 samples.

Results

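The heat shock proteins and DNAJ proteins are the cell's chaperones, proteins that help other proteins fold and keep damaged proteins from clumping. Their transcripts were described here in MCF10A, an established line of non-tumorigenic human breast epithelial cells. The genes were chosen by symbol: protein-coding genes named HSPA, HSPB or HSPH with a digit, HSP90AA1, HSP90AB1, HSP90B1, HSPD1, HSPE1, TRAP1, and those named DNAJA, DNAJB or DNAJC with a digit, without the hyphenated readthrough genes. This gave 72 genes of the 62754 in the table, of which 20046 were protein-coding. The rule itself uses no measured value.

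The study measured total RNA of MCF10A cells to build a metabolic model of the line. All 3 replicates were of 1 group: cells that carried the empty vector of the Retro-X Tet-One inducible system, selected with puromycin, with no gene inserted, no doxycycline and no other treatment, sampled 27 h after seeding. There was thus no heated or stressed sample to compare with, and no comparison between conditions was possible. The labels put the replicates in 1 batch and do not say whether they came from separate cultures, so the SD between them may be technical.

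Values are given as TPM, read counts divided by transcript length and scaled so that each replicate sums to 1000000, which allows levels of different genes to be set side by side. The reads behind them were 15273329, 15446347 and 11166546 in replicates 1, 2 and 3. Replicate 3 stood apart: the short structural RNA RN7SL1 took 49293, 56610 and 150632 TPM in the 3 replicates, and the protein-coding genes together took 915250, 897893 and 796210 TPM. The median protein-coding gene averaging 10 TPM or more was also lower in replicate 3, by 0.24 on the log2 scale against the mean of the others, and a difference of that size in a chaperone gene is not particular to it. The labelled epithelial identity was borne out by its markers. All 7 epithelial and basal markers were at or above 10 TPM, from EPCAM at 14.6 to KRT5 at 6612. Of the markers of hormone-responsive luminal cells 2 of 4 reached 1 TPM (GATA3 highest at 12.8), as did 2 of 4 fibroblast markers (DCN at 9.05), 1 of 3 endothelial (PECAM1 at 1.77) and 1 of 3 immune markers (CD14 at 1.96), while COL1A2, CDH5 and CD3E had no read. In such bulk RNA, fewer cells with a transcript and less of it per cell cannot be told apart.

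HSP70 proteins, encoded by HSPA genes, bind and release short unfolded stretches of other proteins as they split ATP. DNAJ proteins bring substrates to HSP70 and switch on its ATPase through their J domain, and HSP110 proteins reset HSP70 by exchanging its nucleotide. HSP90 takes over later, on nearly folded proteins such as kinases and receptors, and small HSPs hold unfolded proteins without ATP. Each compartment has its own set: BiP (HSPA5) and GRP94 (HSP90B1) in the endoplasmic reticulum (ER), mortalin (HSPA9), TRAP1 and the HSP60 and HSP10 chaperonin (HSPD1 and HSPE1) in mitochondria. Heat shock factor 1 raises the inducible cytosolic genes when proteins misfold, through heat shock elements in DNA, and the unfolded protein response raises the ER genes, in part through ER stress elements.

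Most chaperone genes were transcribed in these untreated cells, and the levels spanned a very wide range. Of the 72 genes, 58 (80.6%) had a mean of at least 1 TPM, the cutoff of the study, against 56.7% of all protein-coding genes. At least 10 TPM was reached by 48 (66.7%, against 41.7%), at least 100 TPM by 18 (25%, against 7.86%) and at least 1000 TPM by 3 (4.17%, against 0.539%). In every replicate, 57 genes (79.2%) were at or above 1 TPM, against 55.2% of protein-coding genes. Summed over the 72 genes, the level was 17628, 16090 and 14164 TPM (15961 ± 1736, SD, n = 3), and 16859 without replicate 3. As a share of all protein-coding TPM the sum was 1.93%, 1.79% and 1.78%, so it was highest in replicate 1 on either scale.

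**Figure D1:**
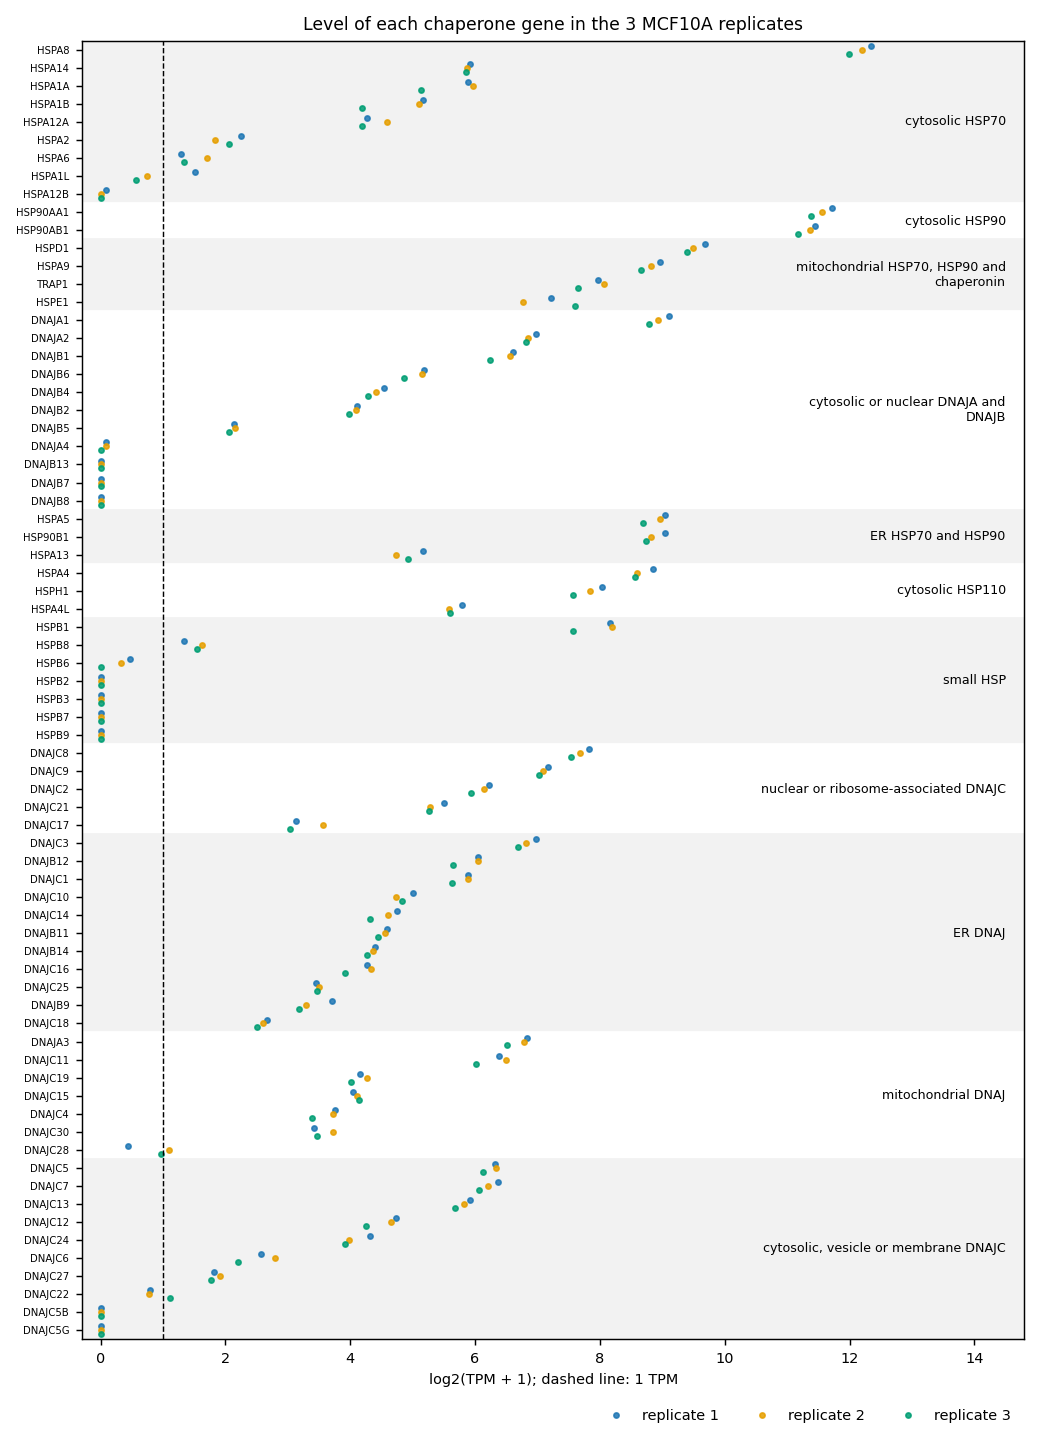
Level of each of the 72 chaperone genes as log2(TPM + 1), with a point per replicate and genes grouped by family and compartment; the dashed line marks 1 TPM. HSPA8, HSP90AA1 and HSP90AB1 lie farthest right, the 3 replicates of most genes lie close together, and 9 genes lie at 0 in every replicate.

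HSPA8, HSP90AA1 and HSP90AB1 together held 64.0% ± 0.279 of the summed chaperone TPM (SD, n = 3). The 5 highest genes held 71.8% and the 10 highest 84.7%. By location, 47 genes of the cytosol, nucleus and vesicles held 80.2% ± 0.390, 11 mitochondrial genes 11.4% ± 0.383 and 14 ER genes 8.38% ± 0.0304. These shares differed between replicates by far less than the summed level did. They depended on the transcript length used: with the length of the canonical transcript, the annotation's reference isoform, in place of the longest, the ER genes held 11.7%, the mitochondrial genes 16.5% and the cytosolic, nuclear and vesicle genes 71.7%. On that length HSPA8, HSP90AA1 and HSP90AB1 together held 55.6%.

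**Figure D2:**
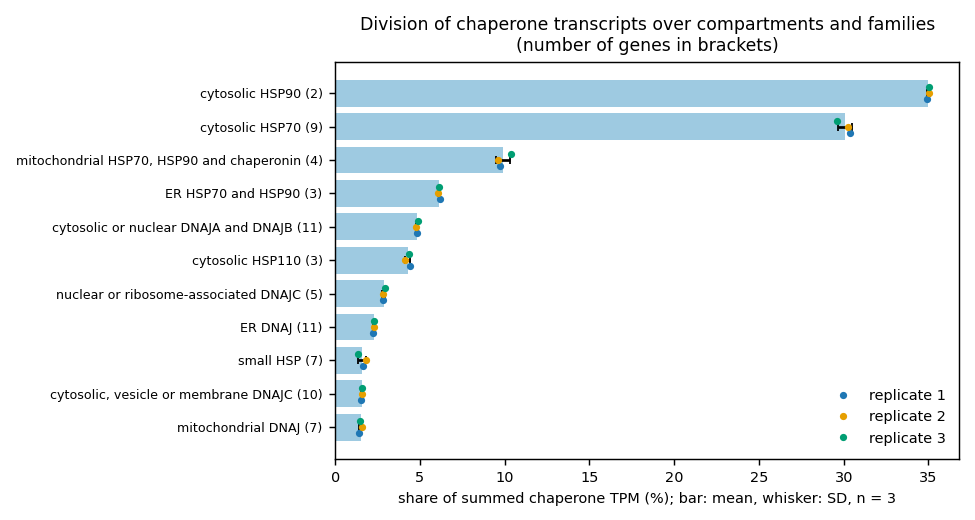
Share of the summed chaperone TPM in each family and compartment, in percent, as bars of the mean with SD (n = 3) and a point per replicate. Cytosolic HSP90 (35.0%) and cytosolic HSP70 (30.1%) stand above every other list, and the points of each list lie close together.

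The cytosolic HSP70 genes were dominated by HSPA8, which encodes the constitutive HSC70 (ENSG00000109971, chr11:123057489-123063230, minus strand, hg38). HSPA8 measured 5174, 4690 and 4060 TPM (4641 ± 559, SD, n = 3), rank 11 among all protein-coding genes. The stress-inducible HSP70 is encoded by HSPA1A (ENSG00000204389, chr6:31815543-31817946) and HSPA1B (ENSG00000204388, chr6:31827738-31830254), which lie on the plus strand 9791 bases apart. HSPA1A measured 58.1, 61.7 and 34.0 TPM, from 734, 802 and 366 reads. HSPA1B measured 35.1, 33.2 and 17.2 TPM, from 465, 452 and 194 reads. Both were present in these untreated cells, and both were lowest in replicate 3.

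HSPA8 stood 55.6, 49.4 and 79.3 times above HSPA1A and HSPA1B together in the 3 replicates (mean ratio 61.4 ± 15.8), and 52.5 without replicate 3. The size of this ratio rests on how shared reads were handled. Of the 50-base stretches of the canonical HSPA1A transcript, 75.12% were found elsewhere in the genome, and the same 75.12% lay in HSPA1B; of HSPA1B, 71.56% lay in HSPA1A. For HSPA8 the share found elsewhere was 24.06%, and no 50-base stretch was common to HSPA1A and HSPA8. With 100-base stretches the shares found elsewhere were 72.4% for HSPA1A, 68.9% for HSPA1B and 4.76% for HSPA8. How reads with several matches were counted is not given in the sources used here. If only uniquely placed 50-base stretches had been counted, dividing by the unique share would bring the ratio to 21.1. The same division would bring HSPA1A from 51.3 to 206 TPM and HSPA1B from 28.5 to 100.1 TPM. Of the canonical HSPA1B transcript, 36.6% is also shared with a noncoding gene of the same strand that had no read. Reads common to both may have been left out. Both the split between HSPA1A and HSPA1B (ratio 1.66, 1.86 and 1.98) and their sum (93.1, 94.9 and 51.2 TPM) are thus uncertain.

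Of the remaining cytosolic HSP70 genes, HSPA14 was level with HSPA1A in the deposited values and the others were below it. HSPA14, a ribosome-associated HSP70, measured 59.7, 57.8 and 56.8 TPM (58.1 ± 1.49), within the SD of HSPA1A (51.3 ± 15.0) and with less spread. This rank also rests on how shared reads were handled. Only 2.1% of the 50-base stretches of HSPA14 were not unique, against 75.12% of HSPA1A, which came to 206 TPM when divided by its unique share. HSPA6, a strictly inducible HSP70, had 18, 29 and 16 reads (1.45, 2.27 and 1.52 TPM). Of its 50-base stretches 56.11% were not unique, and of its 100-base stretches 33.91%. Its close relative in sequence, the pseudogene HSPA7, had no read. HSPA1L, best known from testis, had 27, 10 and 6 reads and straddled 1 TPM (1.86, 0.669 and 0.485).

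Cytosolic HSP90 was the largest list by share. HSP90AA1, the inducible alpha form (ENSG00000080824, chr14:102080742-102139699, minus strand), measured 3352, 3011 and 2661 TPM (3008 ± 345), rank 20 among protein-coding genes. HSP90AB1, the constitutive beta form (ENSG00000096384, chr6:44246166-44253888, plus strand), measured 2799, 2623 and 2305 TPM (2575 ± 251), rank 26. The alpha form was thus the higher in every replicate, with a beta to alpha ratio of 0.835, 0.871 and 0.866 (0.857 ± 0.0194), and the forms shared no 50-base stretch. The order held with the canonical length (0.825) and with reads not divided by length (0.652). The order HSPA8, HSP90AA1, HSP90AB1 and then HSPD1 was the same in all 3 replicates, with each gap larger than the SD of either neighbour.

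The HSP110 genes were all present. HSPA4, the constitutive member, measured 458, 387 and 378 TPM (408 ± 43.99). HSPH1, the inducible HSP105, measured 261, 228 and 188 TPM (226 ± 36.3), so that HSPA4 was 1.82 ± 0.164 times higher. HSPA4L, listed as inducible, measured 49.5 ± 4.25 TPM.

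Of the small HSPs, HSPB1 (HSP27, ENSG00000106211, chr7:76302673-76304295, plus strand) was the only gene above 10 TPM. It measured 285, 291 and 189 TPM (255 ± 57.3), lowest in replicate 3. HSPB8, a partner of the cochaperone BAG3, had 15, 21 and 16 reads (1.85 ± 0.285 TPM). HSPB6 had 3, 2 and 0 reads. HSPB2, HSPB3, HSPB7 and HSPB9, best known from muscle, heart or testis, had no read in any replicate. HSPB2 was the only gene of the 72 (1.39%, against 6.6% of protein-coding genes) that had 50% or more of its canonical transcript, here 85.3%, in common with a second gene of the same strand; the partner is a readthrough gene that also had no read, and reads common to both may have been left out.

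Among the cytosolic and nuclear DNAJA and DNAJB genes, DNAJA1 was the highest and the highest of all DNAJ genes. DNAJA1, a farnesylated partner of HSC70, measured 549, 487 and 443 TPM (493 ± 53.7). DNAJA2, its constitutive relative, measured 117 ± 7.27 TPM, so DNAJA1 stood 4.21 ± 0.219 times higher. DNAJB1 (HSP40), the classical inducible partner of HSP70, measured 96.7, 93.7 and 74.6 TPM (88.3 ± 12.0). All 3 genes were lowest in replicate 3, as were 84.3% of protein-coding genes averaging 10 TPM or more. DNAJA4 had 1, 1 and 0 reads, and DNAJB7, DNAJB8 and DNAJB13 had none.

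The ER pair BiP and GRP94 came out level in the deposited values. HSPA5 (BiP, ENSG00000044574, chr9:125234853-125241382, minus strand) measured 528, 497 and 411 TPM (478 ± 60.7). HSP90B1 (GRP94, ENSG00000166598, chr12:103930107-103953931, plus strand) measured 524, 451 and 426 TPM (467 ± 51.2). Their ratio was 1.01, 1.10 and 0.964, on both sides of equality. This depended on length: the longest annotated HSP90B1 transcript has 6594 bases and the canonical one 2764, and with canonical lengths HSP90B1 measured 908 ± 91.7 TPM, HSPA5 538 ± 61.9 TPM and their ratio 0.592 ± 0.0409. HSPA8 was 9.71 ± 0.240 times as high as HSPA5 in the deposited values. With canonical lengths the ratio was 7.17 ± 0.177, and in reads not divided by length 4.13 ± 0.102.

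The other ER genes were much lower than that pair. HSPA13 (STCH), a truncated HSP70, measured 35.0, 25.5 and 29.4 TPM. DNAJC3 (P58IPK), which restrains the stress kinase PERK and serves BiP, measured 124, 112 and 102 TPM (113 ± 11.3). DNAJB12 (59.8 ± 9.21 TPM), a membrane protein of ER quality control, and DNAJC1 (54.8 ± 5.51 TPM) followed. Of the remaining unfolded protein response genes, DNAJC10 (ERdj5, a disulfide reductase) measured 28.1 ± 2.85 TPM, DNAJB11 (ERdj3) 22.1 ± 1.09 and DNAJB9 (ERdj4), which represses the sensor IRE1, 12.1, 8.75 and 8.06. This order depended on length: on canonical lengths DNAJB11 measured 62.7 TPM, above DNAJC1 (44.7) and DNAJC10 (24.0). All 11 ER DNAJ genes averaged 1 TPM or more, and 9 averaged 10 TPM or more, beside 56.7% and 41.7% of all protein-coding genes.

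The mitochondrial genes were led by the chaperonin HSPD1. HSPD1 (HSP60, ENSG00000144381, chr2:197486584-197516737, minus strand) measured 824, 722 and 675 TPM (740 ± 76.2). Its lid HSPE1 (HSP10, ENSG00000115541, chr2:197500140-197503449, plus strand) measured 148, 108 and 193 TPM (150 ± 42.3), from 545, 409 and 603 reads. HSPE1 was thus highest in replicate 3, where HSPD1 was lowest. The canonical transcripts of the pair start head to head, with 538 bases between them. Their ratio was 5.56, 6.67 and 3.51 (mean 5.25), and with canonical lengths 9.72, 11.6 and 6.12 (mean 9.16). The levels of both are uncertain, since 42.26% of the 50-base stretches of HSPD1 and 38.58% of those of HSPE1 were not unique. With 100-base stretches these shares were lower, at 13.56% and 12.23%. Divided by the unique share of 50-base stretches, HSPD1 would come to 1282 TPM and HSPE1 to 244 TPM. For HSPE1, 34.5% of its canonical transcript is also shared with the readthrough gene HSPE1-MOB4 (0 reads), and its longest transcript has 698 bases, of the order of the 200 to 300 base inserts the libraries were made for.

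HSPA9 (mortalin), the HSP70 of protein import, measured 496, 450 and 404 TPM (450 ± 46.0). TRAP1, the mitochondrial HSP90, measured 249, 268 and 200 TPM (239 ± 34.8), and HSP90AA1 stood 12.7 ± 1.23 times above it. Among the mitochondrial DNAJ genes, DNAJA3 (TID1), a partner of mortalin, measured 112, 110 and 90.4 TPM, DNAJC11, a protein of the cristae organising complex, 78.5 ± 13.0 and DNAJC19, part of the import motor, 16.7 ± 1.503. DNAJC28 had 3, 10 and 7 reads and straddled 1 TPM (0.351, 1.14 and 0.962).

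The DNAJC genes of the nucleus and ribosome were led by DNAJC8, a protein of the splicing machinery, at 226, 203 and 185 TPM (205 ± 20.3). DNAJC9, a histone chaperone, measured 136 ± 6.97 TPM. Of its canonical transcript 72.0% overlaps FAM149B1 on the opposite strand, and whether counting used strand is not given in the sources used here, so reads of the pair could not be told apart. DNAJC2, which works with HSPA14 at the ribosome, measured 67.8 ± 6.80 TPM. Of the cytosolic and vesicle DNAJC genes the highest were DNAJC5 (cysteine string protein, 75.8 ± 6.02 TPM), DNAJC7 (73.2 ± 7.74) and the endosomal DNAJC13 (55.1 ± 4.92). This order depended on length: on canonical lengths DNAJC7 measured 139 TPM, above DNAJC5 (62.2). DNAJC22 straddled 1 TPM (0.726, 0.706 and 1.15 TPM). DNAJC5B and DNAJC5G had no read. All 44 DNAJ genes together held 13.0% of the chaperone TPM, and 36 of them had a mean of at least 1 TPM, beside 56.7% of all protein-coding genes.

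Altogether 9 genes (12.5%) had no read in any replicate, against 26.2% of protein-coding genes. With a limit of 3 reads, the levels this depth could have missed ran from 0.165 to 1.22 TPM per replicate, so for the short HSPB9 a level of 1 TPM was not detectable with certainty. The 3 genes that straddled 1 TPM (4.17%, against 2.84%) rested on 3 to 27 reads per replicate. These limits cover counting error only.

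Grouped by stress dependence, the 4 constitutive counterparts (HSPA8, HSP90AB1, HSPA4 and DNAJA2) held 48.5% of the summed TPM. The 9 genes listed as responsive to heat shock factor held 26.3%, most of it HSP90AA1, and all 9 were at or above 1 TPM, from HSPA6 at 1.75. The 7 genes of the unfolded protein response held 7.19%, the 5 of the mitochondrial stress response 10.6%, and the 47 genes in none of these lists 7.45%. These shares depended on length too. On canonical lengths the constitutive counterparts held 41.4%, the heat shock factor responsive genes 24.8% and the unfolded protein response genes 10.6%. The mitochondrial stress genes then held 15.4% and the unlisted genes 7.83%. Of the 47 genes in no list, 33 had a mean of at least 1 TPM. Over all protein-coding genes, 56.7% reached that level.

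The sequences upstream of these genes were searched for the elements named above, since the lists were drawn by known induction and not by sequence. RefSeq promoter windows (GRCh38.p14, 250 bases before to 50 after a start) matched 65 of the 72 genes with 84 windows. The heat shock element, searched as GAA, TTC and GAA, or TTC, GAA and TTC, with 2 bases of any kind between each triplet and on both strands, occurred in windows of 7 of the 65 genes (10.8%), against 0.608% of all genes and 0.534% of protein-coding genes with windows. The ER stress element, searched as CCAAT, 9 bases of any kind and CCACG on both strands, occurred in 2 genes (3.08%), against 0.0916% of all genes and 0.137% of protein-coding genes. The 2 genes were HSPA5 and HSP90B1, both of the unfolded protein response list of 7. The heat shock element was found in HSP90AA1, HSPA6 and DNAJA1 of the 9 heat shock factor responsive genes, in HSPA8 and HSP90AB1 of the 4 constitutive genes, in HSPD1 of the 5 mitochondrial stress genes, and in DNAJB6 of the 40 matched genes in no list. These exact letters were absent from the windows of HSPA1A, HSPA1B, DNAJB1, HSPH1, HSPA4L and HSPB1. A match is a description of letters, and binding was not measured.

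The 250 bases before the start are shown for 6 of these genes, because they span the highest chaperone genes, the low HSPA6 and the ER pair, with the fixed letters of each match in capitals, 5′ to 3′ on the strand of the gene:
HSPA8 (GRCh38.p14, chr11:123062137-123062386, minus strand): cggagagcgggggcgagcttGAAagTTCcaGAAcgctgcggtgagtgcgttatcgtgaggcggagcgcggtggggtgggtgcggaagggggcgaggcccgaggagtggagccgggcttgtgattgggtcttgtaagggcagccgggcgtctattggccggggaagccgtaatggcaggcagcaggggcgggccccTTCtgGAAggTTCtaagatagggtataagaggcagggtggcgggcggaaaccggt
HSP90AA1 (GRCh38.p14, chr14:102087045-102087294, minus strand): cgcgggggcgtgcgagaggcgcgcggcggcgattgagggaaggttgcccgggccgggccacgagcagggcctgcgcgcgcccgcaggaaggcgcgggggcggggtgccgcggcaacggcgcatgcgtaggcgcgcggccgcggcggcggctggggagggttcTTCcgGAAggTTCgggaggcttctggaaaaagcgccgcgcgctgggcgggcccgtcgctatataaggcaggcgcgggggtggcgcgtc
HSPA6 (GRCh38.p14, chr1:161524290-161524539, plus strand): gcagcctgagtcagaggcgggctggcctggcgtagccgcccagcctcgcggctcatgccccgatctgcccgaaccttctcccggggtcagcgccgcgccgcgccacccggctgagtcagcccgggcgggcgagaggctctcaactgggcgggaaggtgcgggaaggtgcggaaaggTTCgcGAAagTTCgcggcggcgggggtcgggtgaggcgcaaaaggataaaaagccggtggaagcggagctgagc
HSPD1 (GRCh38.p14, chr2:197499841-197500090, minus strand): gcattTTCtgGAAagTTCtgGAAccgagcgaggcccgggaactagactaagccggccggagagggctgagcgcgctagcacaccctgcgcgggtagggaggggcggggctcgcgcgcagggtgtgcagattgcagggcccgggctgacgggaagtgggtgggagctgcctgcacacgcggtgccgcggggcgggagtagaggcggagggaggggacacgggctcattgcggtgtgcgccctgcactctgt
HSPA5 (GRCh38.p14, chr9:125241344-125241593, minus strand): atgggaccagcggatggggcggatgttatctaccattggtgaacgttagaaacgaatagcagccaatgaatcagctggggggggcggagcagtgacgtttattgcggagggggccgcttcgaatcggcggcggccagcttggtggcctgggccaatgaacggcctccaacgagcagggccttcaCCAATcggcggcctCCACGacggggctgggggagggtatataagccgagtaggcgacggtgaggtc
HSP90B1 (GRCh38.p14, chr12:103930160-103930409, plus strand): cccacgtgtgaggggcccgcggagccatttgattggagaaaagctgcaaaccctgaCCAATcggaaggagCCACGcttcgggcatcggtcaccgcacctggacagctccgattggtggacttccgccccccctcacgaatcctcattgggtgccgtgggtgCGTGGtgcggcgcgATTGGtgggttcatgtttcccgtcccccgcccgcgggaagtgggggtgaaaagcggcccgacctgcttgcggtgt
The HSPA8 stretch holds matches at 230 and 55 bases before the start, counted at their first base, HSP90AA1 at 88, and HSPA6 at 74. In HSPD1 the matches at 245 and 240 overlap each other. They lie in the 538 bases between the canonical starts of HSPD1 and HSPE1, but no match was found within a window of HSPE1. HSPA5 holds its ER stress element at 66 bases before the start and HSP90B1 at 194 and 89, the latter on the opposite strand. Matches in HSP90AB1 lay at 165 and 112 bases before an alternative start inside intron 1 of the canonical transcript, that in DNAJB6 at 131 bases before its start, and that in DNAJA1 in exon 1. HSPA8 at 4641 TPM and HSPA6 at 1.75 TPM both hold the element close to the start. Of the 7 genes with a heat shock element in a window, HSPA8, HSP90AA1, HSP90AB1, HSPD1 and DNAJA1 were the 5 highest of all 72 chaperone genes in the deposited values. The place of DNAJA1 was not firm. It was above HSPA5 in 2 of 3 replicates, by less than the SD. On canonical lengths DNAJA1 (402 TPM) was below HSP90B1 (908), HSPA9 (622) and HSPA5 (538). DNAJB6 (32.7 TPM) and HSPA6 were lower. A link between these letters and the level was not tested.

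Replicates were close for most chaperone genes. The SD of log2(TPM + 1) between the 3 replicates had a median of 0.16 over the 58 genes averaging 1 TPM or more, and of 0.16 over the 11360 such protein-coding genes. Of the 48 genes averaging 10 TPM or more, 41 (85.4%) were lower in replicate 3 than in both others, against 84.3% of protein-coding genes. The log2 ratio of replicate 3 to the mean of the others had a median of -0.23 over the 48 genes and -0.24 over 8364 protein-coding genes, so the medians of the chaperones and of the other genes were close. Without replicate 3 the median SD was 0.0877.

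A few chaperone genes departed from this common shift. HSPA1B had a ratio of -0.99, and 2 of the 8364 protein-coding genes were lower. HSPA1A had -0.82, with 11 genes lower, and HSPB1 had -0.61, with 105 lower. These are the inducible HSP70 pair and HSP27, all 3 in the heat shock factor responsive list, whose 8 genes above 10 TPM had a median of -0.36. Its other members lay nearer the common shift: HSPH1 at -0.38, DNAJB1 at -0.35, HSP90AA1 at -0.26, DNAJA1 at -0.23 and HSPA4L at -0.09. HSPA1A and HSPA1B may not be separate observations, since 75.12% of the 50-base stretches of HSPA1A lay in HSPA1B. The medians of the other lists were -0.16 for the unfolded protein response (6 genes), -0.23 for the mitochondrial stress genes (5) and -0.20 for the constitutive genes (4). In the other direction HSPE1 had 0.59, with 13 genes higher. Genes whose longest transcript was under 1000 bases varied more on this measure, with a median of -0.13 and 95% of them under 0.44. Replicate 3 also had the fewest reads and the most RN7SL1, and the part of these in the differences was not tested.

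**Figure D3:**
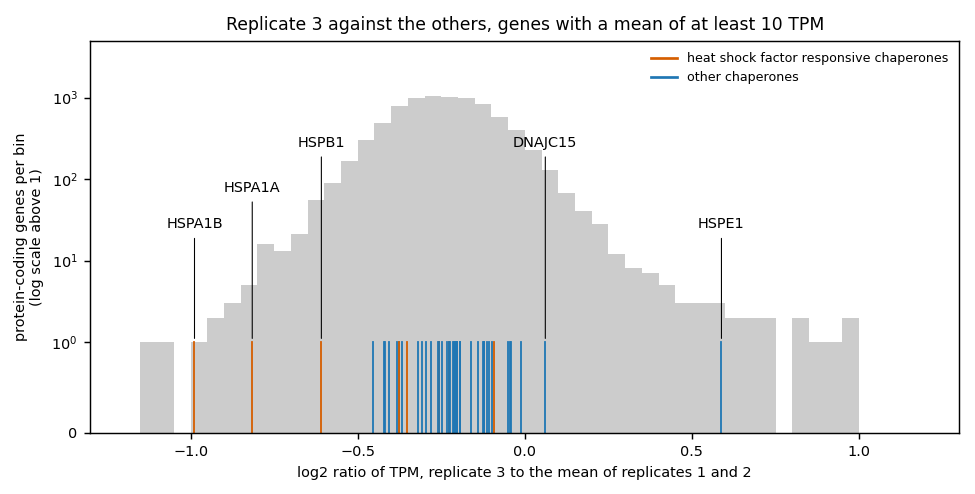
Log2 ratio of TPM in replicate 3 to the mean of replicates 1 and 2, for 8364 protein-coding genes (grey, number per bin, log scale above 1; 1 gene lies outside the range) and for 48 chaperone genes averaging 10 TPM or more (vertical ticks). Most chaperone ticks sit in the bulk around -0.24, with HSPA1B (-0.99), HSPA1A (-0.82) and HSPB1 (-0.61) to the left and HSPE1 (0.59) to the right.

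The choice of transcript length moved some genes by more than their SD between replicates. The deposited TPM used the longest annotated transcript, which for 14 of the 72 genes (19.4%) was over 1.5 times the canonical one, against 11.2% of protein-coding genes. On canonical lengths all TPM are rescaled, so that a gene with equal lengths, such as DNAJC3, came to 0.815 of its deposited value. Against that, HSPD1 came to 1329 ± 125 TPM (740 deposited) and HSPB1 to 390 ± 83.3 (255 deposited). DNAJB1 came to 137 ± 17.0 TPM (88.3 deposited) and DNAJC7 to 139 ± 13.3 (73.2 deposited). The largest factors in length were those of DNAJB11 (3.48) and DNAJB6 (3.22), named here after their values were seen. DNAJB11 came to 62.7 ± 2.32 TPM and DNAJB6 to 85.7 ± 9.21, from 22.1 and 32.7.

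**Figure D4:**
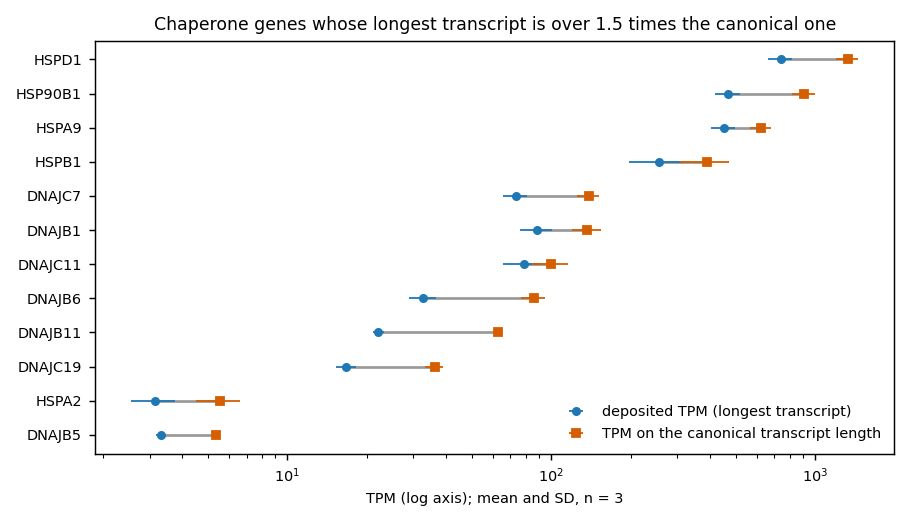
Mean TPM with SD (n = 3, log axis) of the 12 chaperone genes at or above 1 TPM whose longest transcript is over 1.5 times the canonical one, as deposited (circles) and on the canonical length (squares). Every square lies to the right of its circle, with HSPD1 (740 against 1329) the highest and HSPA2 (3.16 against 5.56) and DNAJB5 (3.32 against 5.34) the lowest.

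Pseudogene copies of chaperone genes took few of the counted reads. The treatment of reads that match both a copy and its parent is not given in the sources used here. Low counts therefore do not show that the copies were not transcribed. The table lists 97 pseudogenes named after 14 of the chaperone genes, of which 39 had reads and 12 a mean of at least 1 TPM. The 17 copies of HSPA8 had 114 reads, 0.0700% of the 162817 of HSPA8 itself, and the 26 copies of HSPE1 had 60, 3.85% of those of HSPE1. The highest share was that of DNAJB6, whose 8 copies had 298 reads (7.47%). Per length, these copies summed to 28.2, 29.8 and 20.8 TPM, beside 35.4, 34.4 and 28.2 TPM of DNAJB6 itself. The values of DNAJB6 rest on its longest transcript, 3.22 times the canonical length. On canonical lengths DNAJB6 measured 92.3, 89.6 and 75.2 TPM, and the copies were not recomputed on that scale.

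The partners and regulators of these chaperones were largely present: of 66 genes in 8 lists, 64 had a mean of at least 1 TPM, 60 at least 10 and 32 at least 100, beside 56.7%, 41.7% and 7.86% of all protein-coding genes. Among the heat shock factors, HSF1, the main activator, measured 99.2, 102 and 75.2 TPM (92.0 ± 14.6). HSF2 measured 21.3 ± 1.55 TPM, HSF4 2.65 ± 0.651 and the inhibitor HSBP1 16.6 ± 2.17. Of the ER stress sensors, ATF6 (45.6 ± 3.37 TPM) was the highest, above the kinase EIF2AK3 (PERK, 14.03 ± 0.863) and ERN1 (IRE1, 5.79 ± 1.48). Of the factors they control, ATF4 measured 491 ± 55.4 TPM, XBP1 125 ± 16.2 and the death-linked DDIT3 (CHOP) 6.73 ± 1.60. Transcript levels do not show whether these factors were active.

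All 12 HSP70 exchange and helper genes reached 10 TPM, from BAG2 at 22.1 to ST13 (HIP) at 196, as did all 10 HSP90 cochaperones, from SUGT1 at 24.0 to PTGES3 (p23) at 427. Ranks in these lists depend on length too. SUGT1 was divided by 14148 bases and had 1884, 1780 and 1488 reads, more than the 1133, 1080 and 707 of PPID. In the cytosolic chaperonin and prefoldin list, 11 of 14 genes reached 100 TPM, led by CCT3 at 1273, while PFDN5 was lowest at 3.27, with 100% of its canonical transcript shared with another gene. Of the 10 other ER folding genes, 8 reached 100 TPM, from CRELD2 at 40.3 to the lectin chaperone CALR at 1311, which thus stood above HSPA5 and HSP90B1. The longest CRELD2 transcript has 2620 bases and the canonical one 1418, so its last place may depend on length. The 4 mitochondrial proteases and disaggregase ran from CLPB at 28.1 to LONP1 at 94.9 TPM. Of the J-domain and small HSP genes under other names, 4 of 6 reached 10 TPM, with SEC63, the J protein of the ER translocon, highest at 58.3 and the lens crystallin CRYAA without a read.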

How the data were processed

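RNA-seq libraries depleted of ribosomal RNA were made from 300 ng of total RNA in 3 replicates of 1 group. By the labels and methods, the authors processed the reads with Seq2science on hg38 (STAR, fastp and MultiQC are named in the submitters' processing notes), and the authors deposited 1 table of TPM for 62754 genes. Counting settings, strand use, the treatment of reads with several matches and any filter are not given in the sources used here. No column of the authors' own comparisons was present, and 0 columns of values were left unused. Each replicate summed to 1000000. TPM multiplied by the longest transcript length of GENCODE release 44 were whole multiples of 1 step in each replicate (100% of values within 0.01), which gave the reads of 15273329, 15446347 and 11166546. They served for depth only, since with 1 condition no count test could be made.

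Symbols and gene types came from GENCODE 44 (62700 of 62754 genes found). The chaperone genes, their compartment and stress lists, the lists of partners and the markers were chosen with earlier results of these data known and support nothing by themselves. Named were all genes of the stress lists, the 3 highest of each compartment list, genes on both sides of 1 TPM, genes with at least 50% of the canonical transcript shared, genes without reads, and of the partner lists all heat shock factors and ER stress sensors and the highest and lowest of each other list. Others were named after their values were seen. Values are means with SD (n = 3), and no test was made. SDs of log2(TPM + 1) used a pseudocount of 1. A run of 50 bases, or of 100 where stated, found more than 1 time in hg38 was called not unique. Promoter windows came from RefSeq. The search for shared stretches and the summaries were tested on simulated data. Python 3.11.15, numpy 2.4.6, pandas 2.3.3, numba 0.67.0 and matplotlib 3.10.9 were used. The alternatives were other cutoffs, lengths, totals, pseudocounts, summaries and replicates left out.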

Additional observations from a re-analysis of the deposited data

How the results depend on the processing

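No paired analysis was possible because there is a single group of samples. With protein-coding genes rescaled to sum to 1000000, the summed level of the chaperone genes was 18323. With reads scaled to a total of 1000000 and not divided by length it was 19524, the ER, mitochondrial and other shares were 14.7%, 16.1% and 69.2%, and HSP90AB1 to HSP90AA1 was 0.652. With canonical lengths the shares were 11.7%, 16.5% and 71.7% and the ratio 0.825. With TPM divided by the unique share of 50-base stretches, which was chosen after seeing the data, the sum was 20470 TPM, the shares 7.12%, 12.2% and 80.6%, HSP90AB1 to HSP90AA1 0.837, and HSPA8 to HSPA1A plus HSPA1B 21.1. HSPA8 was above HSPA1A plus HSPA1B, and HSP90AA1 above HSP90AB1, under each alternative run on these ratios. Halving or doubling the cutoff gave 60 and 55 genes at 1 TPM and 51 and 38 at 10 TPM. Leaving out each replicate gave 58 genes at 1 TPM each time, a sum of 15127 to 16859 TPM and a ratio of HSPA8 to HSPA1A plus HSPA1B of 52.5 to 67.4. The median SD ran from 0.0877 without replicate 3 to 0.200 without replicate 2, and was 0.1002 with protein-coding genes rescaled. Depth limits the genes with under 30 reads per replicate, such as HSPA6, HSPA1L and HSPB8.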
